A study of Drosophila melanogaster with 8 samples.

Results

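The odorant and gustatory receptor genes of Drosophila melanogaster were described by the open chromatin at their transcription start sites in the late embryo. They were taken as the protein-coding genes whose release 6 symbol is Or or Gr followed by a number and a letter, and they made 119 of the 13945 protein-coding genes on chromosome arms 2L, 2R, 3L, 3R, 4 and X. Of these, 59 were odorant receptor (Or) and 60 were gustatory receptor (Gr) genes. Primordial germ cells (PGCs), the precursors of eggs and sperm, and somatic cells were sorted by flow cytometry from whole late embryos. The embryos were of the Vas::EGFP genotype, in which the germline protein Vasa carries a green fluorescent tag. They came from an overnight collection and so covered a range of ages. PGCs were the GFP-positive cells and somatic cells the GFP-negative ones, both from the same strain, dissociated with trypsin for the sort and cryopreserved, and ATAC-seq, which marks DNA that the Tn5 transposase can reach, was made in 2 samples of each. The 2 samples of a cell type were averaged by the authors before peaks were called, so that each cell type is known from 1 peak list. There is therefore no spread between replicates, no depth behind a peak and no test between PGCs and somatic cells.

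Odorant receptors are ion channels that work together with the co-receptor Orco in olfactory neurons of the antenna, the maxillary palp and the larval dorsal organ, and each neuron uses few of them. Gustatory receptors respond to sugars, bitter compounds and, in the antenna, carbon dioxide, and are used in taste neurons of the mouthparts, legs and wings. These genes are turned on late, in differentiated sensory neurons. Expression was not measured in the data used here, and some members are used by larval neurons that already form in the late embryo.

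Few receptor start sites had a listed peak nearby in either cell type. A peak with any base within 500 bp of a start site was found at 13 of 119 receptor genes in PGCs (10.9%, exact 95% binomial interval 5.95% to 18.0%) and at 11 in somatic cells (9.24%, 4.71% to 15.9%). Over all protein-coding genes, the shares were 51.8% (7217 of 13945) in PGCs and 31.2% (4353) in somatic cells. No peak of either list lay near 99 receptor genes (83.2%, 75.2% to 89.4%), against 44.5% of all genes. Such intervals cover counting error only, because genes are not replicates. In a mixed population, a site open in few cells and a site partly open in many cells cannot be told apart. The somatic cells were such a mixture, of all GFP-negative cells of the embryo.

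**Figure D1:**
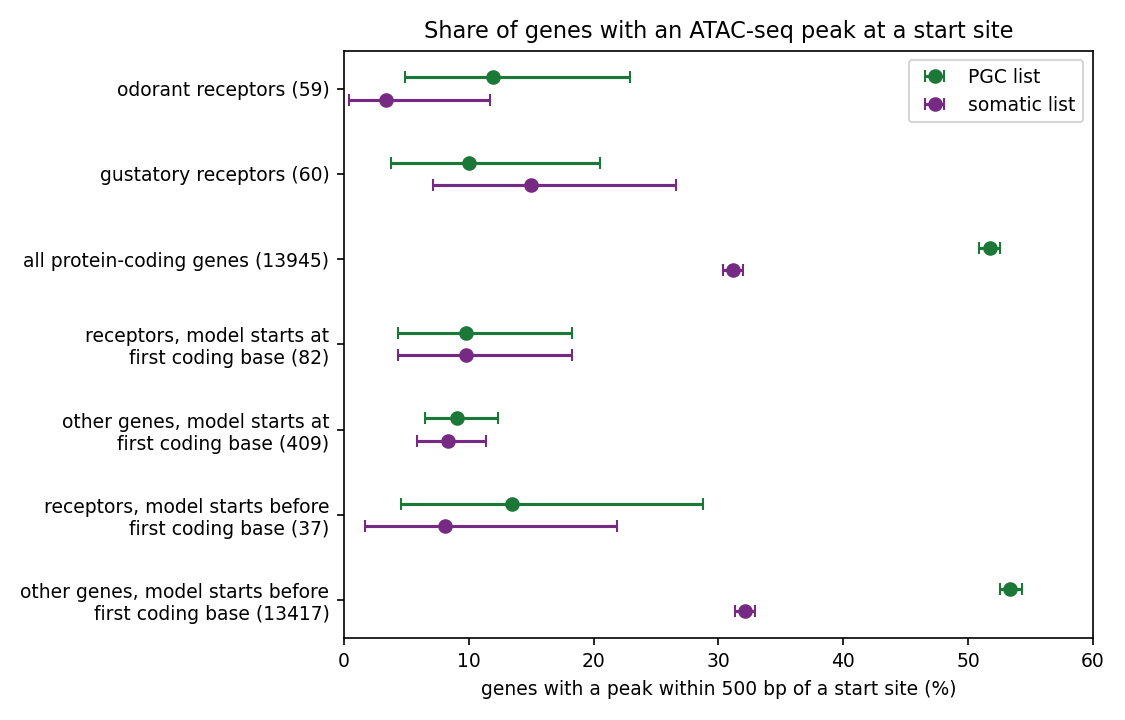
Share of genes (%) with a peak within 500 bp of a start site in the PGC and somatic lists, for odorant receptor, gustatory receptor and all protein-coding genes. Further rows divide receptors and other genes by whether the annotated start is the first coding base. Points are shares and error bars are exact 95% binomial intervals of counting. Receptor shares lay between 3.39% and 15.0%, and those of all genes at 51.8% and 31.2%. Other genes that start at the first coding base stood at 9.05% and 8.31%.

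Most peaks that did occur were near the lower limit of the lists. Height was the averaged RPKM coverage (reads scaled by length and by the number of mapped reads) at the summit, and the lowest listed peak had 50 RPKM in both lists. At the 13 receptor genes with a PGC peak, the highest peak ranged from 50 to 136 RPKM with a median of 58.8 RPKM (95% interval from order statistics 54.4 to 102.6 RPKM). The median over all genes with a PGC peak, 94.9 RPKM, lay within that interval. At the 11 receptor genes with a somatic peak, it ranged from 51.6 to 70.7 RPKM with a median of 55.0 RPKM (51.9 to 61.3 RPKM), beside 62.0 RPKM over all genes with one. The highest peak stayed under 60 RPKM at 7 of 13 receptor genes in PGCs (53.8%) and at 9 of 11 in somatic cells (81.8%), and the corresponding shares over all genes with a peak were 15.9% and 43.7%. A peak of at least 80 RPKM stood at 3 receptor genes in PGCs (Gr2a, Gr97a and Or43b, 2.52%) and at none in somatic cells, against 32.0% and 7.16% of all genes. Since the lists were scaled and called apart, heights in PGCs and somatic cells need not be on one scale.

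Almost no receptor start site was itself under a peak. In PGCs, a peak covered the start of 0 of 119 receptor genes (interval 0% to 3.05%) and of 37.2% of all genes. In somatic cells, it covered the start of 1 receptor gene, Gr43a (0.840%), and of 12.2% of all genes. Along the 5 kb to each side of the most upstream start, the mean share of receptor genes under a peak was 2.41% in PGCs and 1.30% in somatic cells. The same means over all genes were 7.55% and 4.01%, and their profile rose to 33.6% and 9.84% at the start, while that of the receptors had no rise there. Of the bases of the 6 arms, 16.2% (PGCs) and 13.8% (somatic cells) lay within 500 bp of a peak. These values lie within the intervals of the receptor shares of 10.9% and 9.24%, which are wide. Peaks themselves covered 4.2% (PGCs) and 2.93% (somatic cells) of the bases. The PGC value lay above the interval of 0% to 3.05% for covered receptor starts. The somatic value lay within the interval for the 1 covered start (0.0213% to 4.59%).

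**Figure D2:**
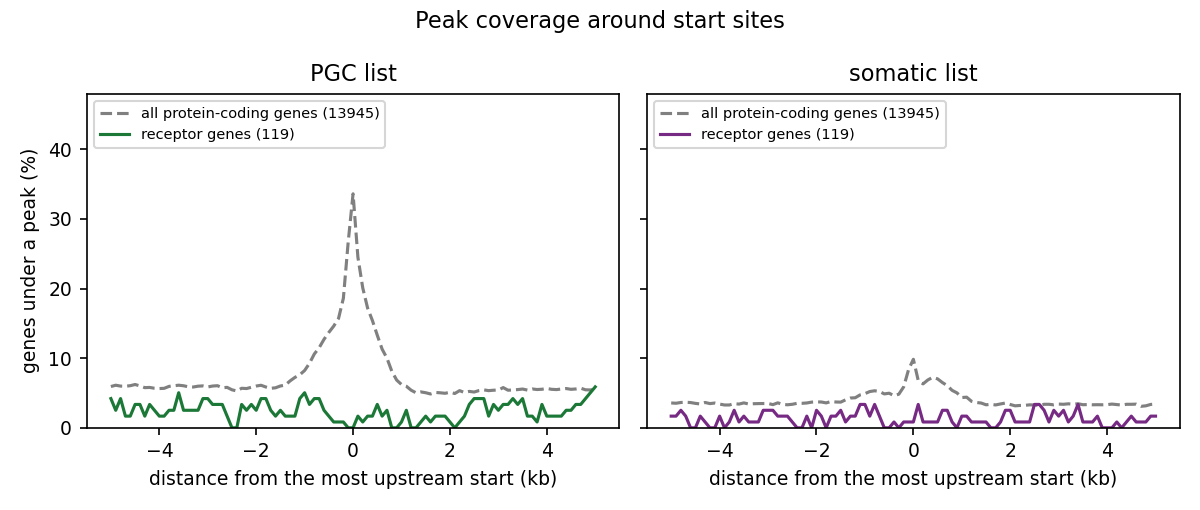
Share of genes (%) lying under a peak by distance from the most upstream start site (kb), for 119 receptor genes (solid) and 13945 protein-coding genes (dashed), in the PGC and somatic lists. The dashed lines rise to 33.6% and 9.84% at the start, where the receptor lines stand at 0% and 0.840%.

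Both families contributed to each list. Among odorant receptors, 7 of 59 had a PGC peak (11.9%, 4.91% to 22.9%) and 2 a somatic one (3.39%, 0.413% to 11.7%). Among gustatory receptors, 6 of 60 had a PGC peak (10%, 3.76% to 20.5%) and 9 a somatic one (15.0%, 7.1% to 26.6%). The intervals of the families overlapped in both lists. Of the 119, 9 had a PGC peak only (7.56%), 7 a somatic peak only (5.88%, all of them gustatory), 3 overlapping peaks of both lists (2.52%) and 1 a peak of each list lying apart (0.840%). Over all genes, 24.4% had overlapping peaks of both lists, 24.3% a PGC peak only and 3.72% a somatic peak only.

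The members with a peak of both lists within 500 bp of a start were Or43b, Or85f and Gr77a, with overlapping peaks, and Gr63a, with neighbouring ones. Or43b, a receptor for fruit odours, had the highest somatic peak of the group. Its PGC peak reached 102.6 RPKM over 450 bp and its somatic peak 70.7 RPKM over 350 bp. Both summits lay at the same base, 528 bp downstream of the start inside the gene. The other pair of overlapping members had peaks near the lower limit of the lists. At Gr77a, a gustatory receptor inside an intron of CG13252, both lists held the same 50 bp, 104 bp downstream of the start, with a height of 58.8 RPKM (PGCs) and 53.9 RPKM (somatic). At Or85f, which takes part in the detection of parasitoid wasps, the PGC peak (50.5 RPKM) was 50 bp wide and lay within a 150-bp somatic peak (54.5 RPKM) whose summit was 136 bp downstream of the start. The sequences are shown to place these shared openings, which both fell in receptor exons: Gr77a (chr3L:20739301-20739350, minus strand, the whole stretch in capitals as the peak of both lists) and Or85f (chr3R:9398201-9398350, plus strand, capitals for the PGC peak), read from the RefSeq release 6 assembly along the gene's strand.
Gr77a: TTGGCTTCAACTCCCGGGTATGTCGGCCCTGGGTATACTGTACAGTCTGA
Or85f: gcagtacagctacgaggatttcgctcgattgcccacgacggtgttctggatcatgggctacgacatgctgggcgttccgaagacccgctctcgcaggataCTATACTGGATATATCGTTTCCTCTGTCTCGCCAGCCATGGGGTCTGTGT

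Gr63a, which forms the carbon dioxide receptor of the antenna together with Gr21a, had a somatic peak of 53.4 RPKM with its summit 73 bp upstream of the start. Its PGC peak of 65.2 RPKM lay farther upstream, with the summit 273 bp from the start, and began where the somatic peak ended. The PGC summit was 24 bp from the start site of the neighbouring Lamtor4, a subunit of the Ragulator complex at lysosomes, and thus nearer to it than to Gr63a. The 300 bases that hold both peaks show them side by side, with the PGC peak in capitals and the somatic peak in lower case (chr3L:3896651-3896950, minus strand, RefSeq release 6).
Gr63a: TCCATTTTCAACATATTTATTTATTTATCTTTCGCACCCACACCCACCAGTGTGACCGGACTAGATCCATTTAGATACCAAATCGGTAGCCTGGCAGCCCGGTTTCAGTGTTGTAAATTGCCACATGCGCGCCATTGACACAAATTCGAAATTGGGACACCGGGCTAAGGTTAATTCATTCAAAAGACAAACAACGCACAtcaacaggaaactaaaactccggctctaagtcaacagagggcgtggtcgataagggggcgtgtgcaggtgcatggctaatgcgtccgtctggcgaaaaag
Gr21a itself had no peak within 500 bp of a start, and its nearest peaks lay 1082 bp (PGCs) and 1032 bp (somatic cells) away.

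The highest PGC peaks at receptor genes lay upstream, next to or inside other genes. At Gr2a, the peak of 136.0 RPKM (chrX:1451551-1452000) had its summit 704 bp upstream of the receptor's start, inside an exon of futsch, which encodes a microtubule-associated protein of neurons. A somatic peak of 51.6 RPKM overlapped it but ended 530 bp from the Gr2a start, just outside the distance used. A lower Gr2a peak of 67.5 RPKM lay 696 bp downstream. At Gr97a, the PGC peak of 110.7 RPKM was 600 bp wide, the widest of the group, and its summit was 441 bp upstream of the receptor but 4 bp from the start of CG5521, which is transcribed away from it. Gr97a and Gr63a were the members whose peak was nearest to the start of a gene that is not a receptor, so that 11 receptor genes had a PGC peak nearest to a receptor start. All 11 with a somatic peak did. The bases around the Gr97a summit show the neighbour's start (capital) under the peak (chr3R:26966851-26967000, minus strand, RefSeq release 6).
Gr97a: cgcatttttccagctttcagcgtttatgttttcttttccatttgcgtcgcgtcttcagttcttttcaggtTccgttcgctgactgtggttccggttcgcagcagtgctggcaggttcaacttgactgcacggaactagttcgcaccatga

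The remaining PGC peaks lay downstream of receptor starts. Gr39a, a receptor used in courtship with several alternative starts, had a peak of 75 RPKM over 250 bp, 362 bp downstream of the start at chr2L:21296314. Gr61a, a sugar receptor, had a peak of 54.4 RPKM at 375 bp. Or42b, one of the main receptors for vinegar and fruit esters, had a PGC peak of 61.0 RPKM at 436 bp, and a somatic peak of 62.7 RPKM that missed the distance by little, with its edge 512 bp from the start. The neighbouring fruit ester receptor Or42a had a PGC peak of 55.9 RPKM at 91 bp. Or45b, used in the larva, had a PGC peak of 55.5 RPKM at 328 bp, in a stretch that is also an exon of the antisense RNA asRNA:CR45281. Or85e, a receptor of the maxillary palp, had one at the lowest listed height, 50 RPKM, at 452 bp. Or19b, the copy of the citrus odour receptor Or19a, had PGC peaks of 51.8 RPKM at 128 bp and 54.4 RPKM at 478 bp.

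The somatic peaks of gustatory receptors were narrow and close to the list minimum. Gr22e, a bitter receptor, had the highest of them, 61.3 RPKM over 150 bp at 114 bp downstream of the start. The divergent neighbours Gr59e and Gr59f shared a pair of peaks, of 58.0 and 57.7 RPKM, and these 2 members are therefore 1 locus. Gr93a, needed for the taste of caffeine, had 50-bp peaks of 51.6 RPKM at 27 bp upstream and 56.6 RPKM at 273 bp downstream. Gr43a, the fructose receptor of taste neurons and brain, had a 50-bp peak of 55.0 RPKM that covered its start. Gr47b had peaks of 51.2 and 51.6 RPKM, and Gr59d had a single peak of 51.9 RPKM. The Gr93a start is shown because a peak ended 3 bp before its first transcribed base, the capital in the sequence (chr3R:21832451-21832550, plus strand, RefSeq release 6).
Gr93a: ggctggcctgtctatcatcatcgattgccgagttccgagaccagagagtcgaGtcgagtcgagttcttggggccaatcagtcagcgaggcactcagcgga

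**Figure D3:**
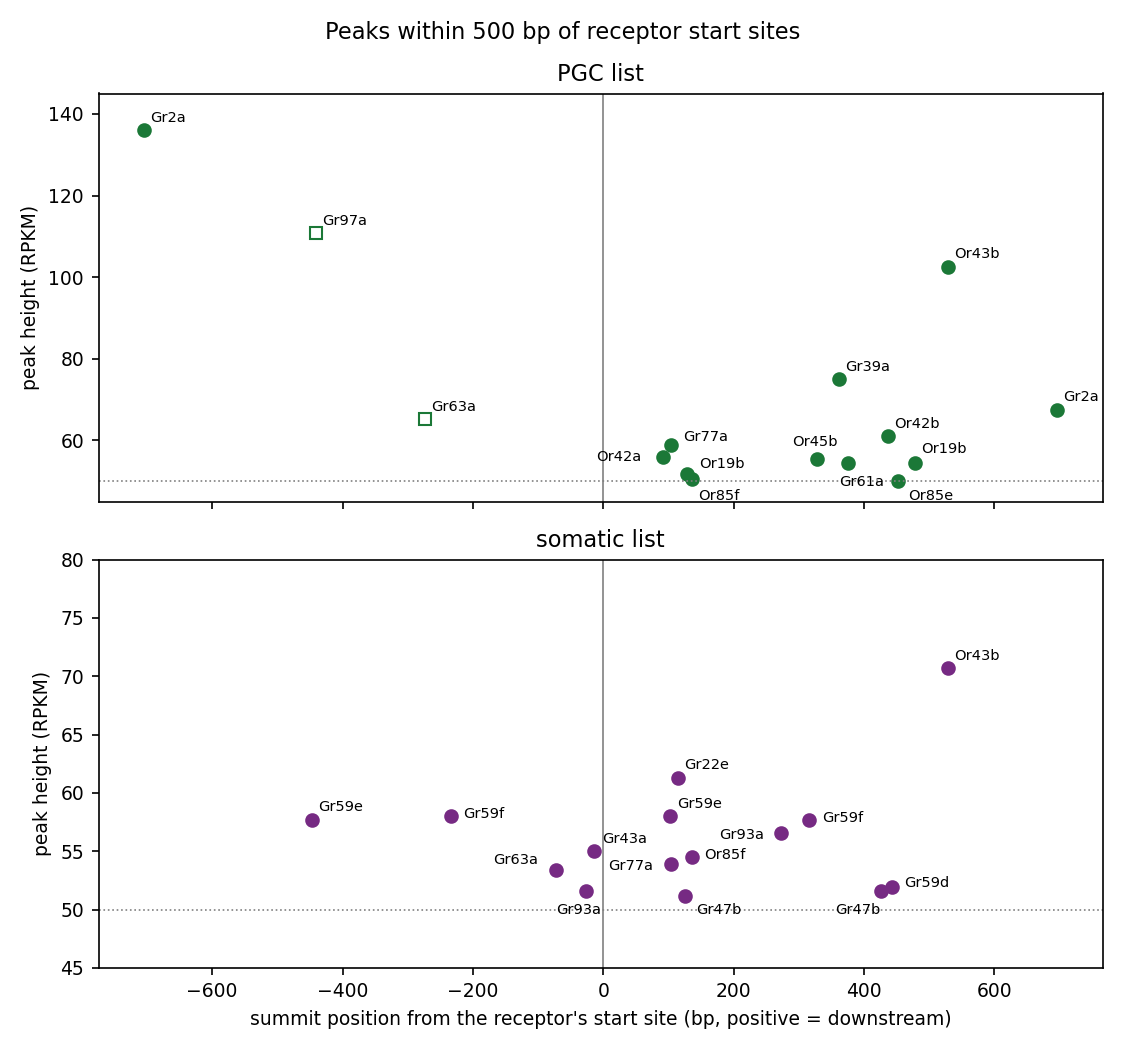
Height (RPKM) of each peak within 500 bp of a receptor start against the position of its summit from that start (bp, positive downstream), in the PGC and somatic lists. Open squares mark summits nearest to the start of a gene that is not a receptor, the dotted line is the list minimum of 50 RPKM, and the peaks shared by Gr59e and Gr59f appear once for each; most points lie downstream of 0 and below 60 RPKM.

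Seen as peaks rather than genes, 15 distinct PGC peaks and 13 distinct somatic peaks lay within 500 bp of receptor starts. Of these, 12 and 9 had their summit downstream of the start, and 12 of 15 (80%) and 10 of 13 (76.9%) had it in a receptor exon. The like shares were not computed for peaks at the starts of all genes. The annotated start is the first coding base in 68.9% of receptors and in 3.52% of all genes, and its part in these positions was not tested. Peaks 50 bp wide, the narrowest the lists hold, made 6 of 15 (40.0%) in PGCs and 7 of 13 (53.8%) in somatic cells, beside 24.7% and 33.1% of all peaks. Peaks under 60 RPKM made 8 of 15 (53.3%) and 11 of 13 (84.6%), beside 45.3% and 61.5% of all peaks. The median GC content of these peaks was 54.0% in both lists, against 51.3% and 52.2% over all peaks, 46.8% over receptor exons and 37.8% in the 500 bp upstream of receptor starts.

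Or19a and Or19b are near-identical copies on X, and over much of their length short stretches cannot tell them apart. Both genes were 1370 bp long and differed at 7 bases (99.5% identity). Of the stretches of 50 bases within 500 bp of their starts, 23.5% occurred once in the genome, whereas all such stretches were unique at 117 of the 119 receptors (98.3%) and at 94.3% of all genes. The 150-bp PGC peak of Or19b had no differing base and none of its stretches of 50 bases was unique, with the nearest differing base 30 bp beyond its end. The matching stretch of Or19a had no peak, and the nearest PGC peak was 15863 bp from the Or19a start. The list is named as made from uniquely mapping reads, and a longer read or its mate that reaches a differing base could still be placed. Whether this peak belongs to Or19b rather than Or19a was not tested. The identical stretches are printed to show this, in lower case because no base differs (Or19b, chrX:20094501-20094650, plus strand; Or19a, chrX:20142936-20143085, minus strand; RefSeq release 6).
Or19b: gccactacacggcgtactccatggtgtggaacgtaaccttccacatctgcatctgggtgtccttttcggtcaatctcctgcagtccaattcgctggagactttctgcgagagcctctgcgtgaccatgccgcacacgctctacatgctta
Or19a: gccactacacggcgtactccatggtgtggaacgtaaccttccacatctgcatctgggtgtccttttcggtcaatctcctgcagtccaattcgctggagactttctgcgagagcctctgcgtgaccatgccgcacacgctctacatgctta

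Receptors with well-known ligands were found both with a peak, as described above for Gr43a, Gr61a, Gr63a, Or42b and Or43b, and among the 83.2% of members without one, as were all those that follow here. For the pheromone receptors, the nearest peaks of Or67d, which detects the male pheromone cis-vaccenyl acetate, lay 8497 bp (PGCs) and 6447 bp (somatic cells) away, and those of Or47b 7562 bp and 712 bp away, the latter a somatic peak of 51.0 RPKM. For the geosmin receptor Or56a the distances were 2533 and 2483 bp. For the food odour receptors, they were 2291 and 18491 bp at Or22a, 4725 and 14125 bp at Or59b, 1497 and 847 bp at Or85a, and 8313 and 2013 bp at Or92a. For the bitter receptors, they were 1471 and 1621 bp at Gr66a, 21743 and 29358 bp at Gr33a, 5937 and 2614 bp at Gr32a, and 3692 and 3742 bp at Gr89a. Among sugar receptors, none of Gr64a, Gr64b, Gr64c, Gr64d, Gr64e and Gr64f, which lie in a row on 3L, had a peak at a start, and the distances at the ends of the row were 4919 and 2519 bp for Gr64a and 4352 and 1302 bp for Gr64f. The nearest peaks of Gr68a, a receptor of male courtship, were 13596 bp away in both lists, and those of Gr28a 16812 and 25512 bp away.

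Of the 9 members with more than 1 start (Gr21a, Gr23a, Gr28b, Gr39a, Gr64c, Gr64d, Gr64e, Or46a and Or69a), Gr39a alone had a peak, in PGCs (11.1%, 0.281% to 48.2%; somatic cells 0%, up to 33.6%), against 71.3% (PGCs) and 47.3% (somatic cells) of the 3699 genes with several starts in all. Gr28b, whose isoforms serve warmth and light sensing, has 5 starts, and its nearest peaks lay 19077 bp (PGCs) and 27777 bp (somatic cells) from any of them. The distances were 6578 and 13723 bp at Gr23a, 5368 and 41189 bp at Or69a, and 932 and 964 bp at Or46a.

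Over the whole group, the nearest peak lay at a median distance of 5164 bp in PGCs and 5089 bp in somatic cells, against 404 and 1558 bp over all genes. The medians were 5034 and 7478 bp for odorant receptors and 5241 and 3536 bp for gustatory receptors. No peak lay within 10 kb of 28 members in PGCs (23.5%) and of 38 in somatic cells (31.9%), against 9.95% and 15.7% of all genes. The range reached 34396 bp in PGCs at Or33a and 69583 bp in somatic cells at Or83c. A peak anywhere in the gene was found in 14 members in PGCs (11.8%) and 22 in somatic cells (18.5%), against 55.2% and 44.2% of all genes, which are longer, with a median of 2166 bp against 1444 bp.

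**Figure D4:**
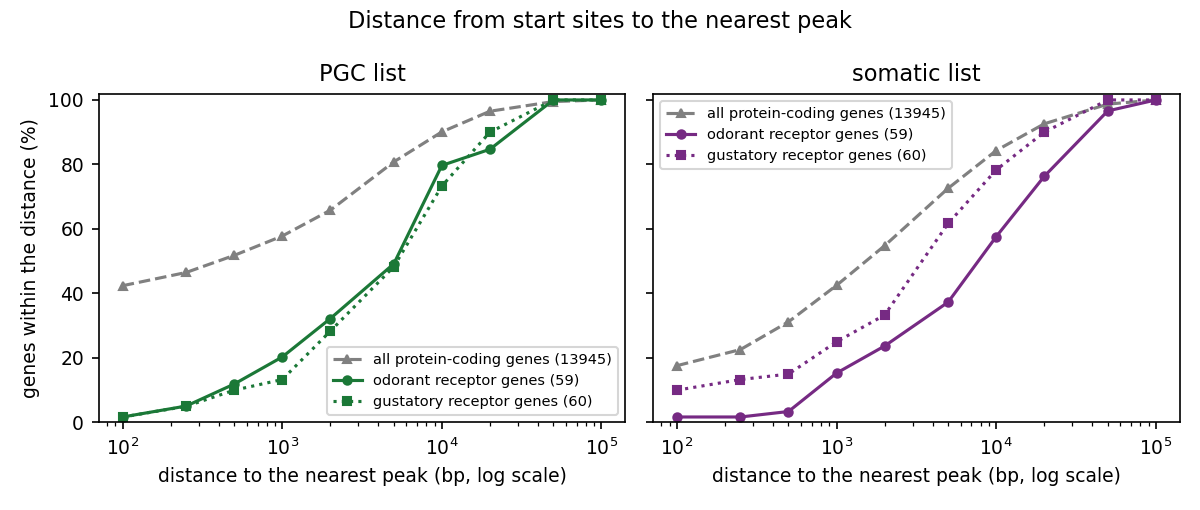
Cumulative share of genes (%) by distance from a start site to the nearest peak (bp, log axis from 100 to 100000), for odorant receptor, gustatory receptor and all protein-coding genes in the PGC and somatic lists. Within 1000 bp the PGC curves stand at 20.3%, 13.3% and 57.8% and the somatic curves at 15.3%, 25.0% and 42.5%.

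Widening the distance to 1000 bp raised the receptor shares to 16.8% in PGCs and 20.2% in somatic cells and those of all genes to 57.8% and 42.5%, a gain of like size in both. Between 500 and 1000 bp, 7 further members had a PGC peak, of which 6 were nearest to the start of a gene that is not a receptor, and 13 had a somatic peak, of which 4 were, so most in PGCs but few in somatic cells lay by a neighbour's start. Gr5a, the trehalose receptor, had a PGC peak of 97.9 RPKM at 517 bp, whose summit lay 49 bp from the start of Tre1, a G protein-coupled receptor that germ cells need for their migration. The PGC peaks of 169.5 RPKM at 695 bp from Or88a and of 154.7 RPKM at 925 bp from Or9a were nearest to the starts of CG12402 and Neb-cGP. Over all members, the summit of the nearest peak was nearest to a start other than those of the 119 members in 81 cases in PGCs (68.1%) and in 74 in somatic cells (62.2%). Such starts included those of Grl36a and of the pseudogene Or98P. Neighbouring members can count the same peak, as Gr36a, Gr36b and Gr36c did, and the share was not computed over all genes.

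Receptor genes were also placed and annotated differently from most genes. A protein-coding start of another gene outside the family lay within 1000 bp of 14 members (11.8%), against 42.8% for all genes, and 110 members had a single start (92.4%), against 73.5%. Among genes with a single start and no such neighbour, 9 of 96 receptors had a PGC peak (9.38%) and 10 a somatic one (10.4%), against 31.9% and 19.5% of 6125 genes in all. Among genes with such a neighbour, 3 of 14 receptors had a PGC peak (21.4%) and 1 a somatic one (7.14%), against 69.1% and 40.0%. The shares were thus lower for receptors in each of these divisions.

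A larger difference lay in the gene models. The annotated start was the first coding base in 82 receptors (68.9%), which therefore have no annotated leader, but in 491 of all genes (3.52%). Among genes annotated in this way, 8 of 82 receptors had a PGC peak (9.76%, 4.31% to 18.3%) and 8 a somatic one (9.76%), and the shares over the 409 other genes were close to these, at 9.05% (6.45% to 12.3%) and 8.31% (5.83% to 11.4%). Among the 37 receptors with an annotated leader, 5 had a PGC peak (13.5%, 4.54% to 28.8%) and 3 a somatic one (8.11%, 1.70% to 21.9%), against 53.4% and 32.1% of 13417 other genes. In genes without a leader, the true start of transcription may lie upstream of the position used, and the part of this in the shares was not tested.

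Members in clusters and members alone were counted apart. The 119 genes had 130 distinct start sites, and 3 of them were shared by pairs of members (Gr10a with Or10a, Gr64b with Gr64c, and Gr64d with Gr64e). Of 46 members with another member's start within 5 kb, 0 had a PGC peak and 3 a somatic one (Gr59d, Gr59e and Gr59f, 6.52%). Of the 73 other members, 13 had a PGC peak (17.8%) and 8 a somatic one (11%). Members of a cluster are not independent of each other, and Gr59e and Gr59f shared their peaks. No like division was made over all genes. By chromosome arm, members with a PGC peak numbered 1 of 27 on 2L, 4 of 28 on 2R, 3 of 22 on 3L, 3 of 28 on 3R and 2 of 14 on X, and those with a somatic peak 1, 6, 2, 2 and 0. Over all genes, the shares by these arms ran from 47.8% on 2L to 54.1% on 2R in PGCs and from 22.6% on X to 35.7% on 2R in somatic cells, and receptors were below them on each arm. The highest of the overlapping peaks that both lay within 500 bp of a receptor start, that of Or43b, lay on 2R (chr2R:7921901-7922350 in PGCs, release 6).

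The base composition around receptor starts was close to that of all genes, and the shares with a motif differed by motif and family. The GC content within 500 bp of a start had a median of 42.1% in receptors and 42.4% over all genes. Motifs were searched on both strands from 250 bp before to 50 bp after the most upstream start. TATCGATA, the site of the DREF factor at housekeeping promoters, occurred in 1 receptor window (0.840%, Gr68a) and in 9.36% of all windows, and over all genes in 14.6% of windows with a PGC peak and 3.73% of those without. GAGAG, bound by GAGA factor, occurred in 23.5% of receptor windows and 29.7% of all, and CAGGTA, bound by the early embryonic factor Zelda, in 7.56% and 6.24%. TATAAA, the TATA box, occurred in 46 of 59 odorant receptor windows (78.0%) and in 18 of 60 gustatory receptor windows (30.0%), with 45.8% over all genes. These letters were counted without regard to their distance from the start, and a match is not evidence of binding. The windows follow the annotated start, which is the first coding base in 68.9% of receptors and in 3.52% of all genes. Receptor windows may thus lie off the true start more often, and the part of this in the motif shares was not tested.

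Other genes of chemical sensing were counted in the same way. Whether their peaks lay nearer to the start of a neighbouring gene was not examined. The shares over all protein-coding genes were 51.8% (PGCs) and 31.2% (somatic cells), and the intervals of the smaller lists are wide. Orco had no peak within 500 bp in either list, and neither had the 2 sensory neuron membrane protein genes. Of the 60 ionotropic receptor (Ir) genes, the other large family of odour and taste receptors, 6 had a PGC peak (10%) and 2 a somatic one (3.33%), the highest being 243.3 RPKM at Ir48c, 170.1 RPKM at Ir60b and 79.0 RPKM at Ir60e, all in PGCs. Of the 51 odorant-binding protein genes, 4 (7.84%) and 6 (11.8%) had one, with PGC heights of 69.1 RPKM at Obp83g and 62.5 RPKM at Obp28a and a somatic height of 64.6 RPKM at Obp59a as the highest. CheA and CheB genes encode proteins of chemosensory hairs. Of 20 such genes, 5 had a PGC peak (25.0%, 8.66% to 49.1%) and 4 a somatic one (20.0%, 5.73% to 43.7%). The highest were at CheA56a (286.2 RPKM in PGCs and 68.3 RPKM in the somatic list), CheB42c (266.9 and 73.4 RPKM) and CheB93a (140.8 and 50.2 RPKM). Of 3 pickpocket channel genes ppk29 had a peak in both lists (176.3 and 53.3 RPKM), and of 7 opsin genes Rh4 had 77.7 and 61.3 RPKM and Rh7 a somatic peak of 52.0 RPKM. Of 9 transcription factors of sensory neurons, 8 had a PGC peak (88.9%, 51.8% to 99.7%) and 4 a somatic one (44.4%, 13.7% to 78.8%). The POU factor gene pdm3 reached 396.0 RPKM (PGCs) and 114.4 RPKM (somatic), lz 105.4 and Eip93F 99.1 RPKM in PGCs, the proneural gene ato 64.7 and 71.1 RPKM, and acj6 no peak. These factors have other roles in the embryo as well.

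**Figure D5:**
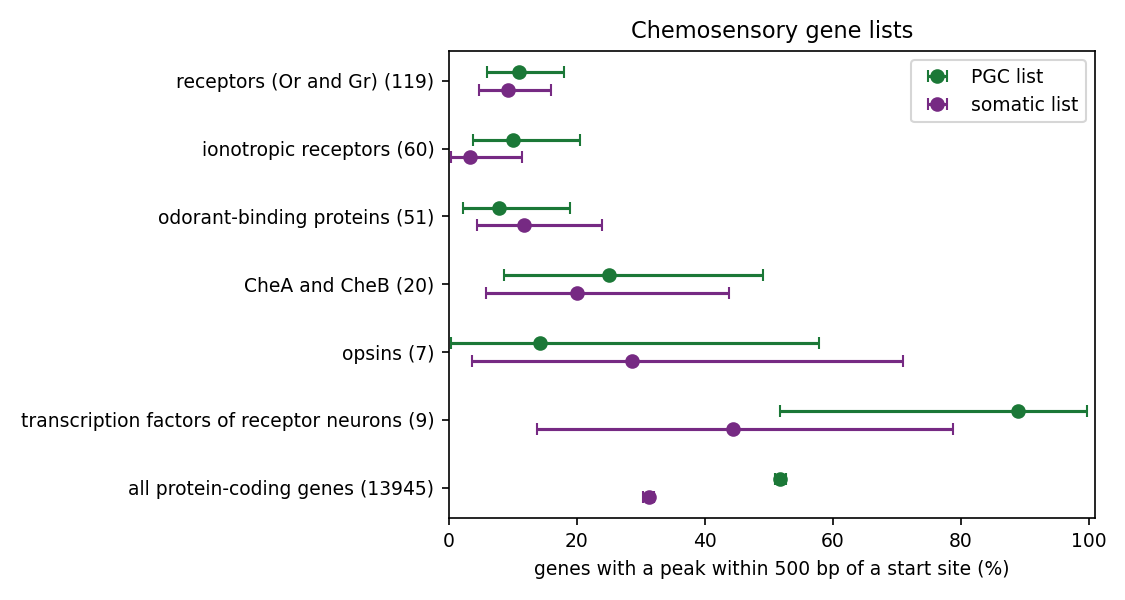
Share of genes (%) with a peak within 500 bp of a start site in the PGC and somatic lists, for the receptor genes (Or and Gr together), related gene lists and all protein-coding genes, with exact 95% binomial intervals of counting. Receptors, Ir genes and odorant-binding protein genes stand between 3.33% and 11.8%, and the transcription factors at 88.9% and 44.4%.

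Markers of both cell types were looked up as well. They were chosen with earlier results of these data known and are therefore no independent check of the labels. The PGC list held a peak at all 11 germline marker genes and the somatic list at 4 of them (36.4%). Of 10 markers of somatic tissues, all were found in the PGC list and 9 in the somatic list. Over all protein-coding genes, the shares were 51.8% (PGCs) and 31.2% (somatic cells). Markers of neurons, muscle and other tissues, such as elav (291.9 and 102.7 RPKM), had peaks in the PGC list too. Of the 10 somatic markers, only Mef2 (152.6 and 165.6 RPKM) and GATAe (51.3 and 70.1 RPKM) had the higher peak in the somatic list. The somatic markers thus did not set the lists apart, though heights need not be on one scale. Whether somatic cells were among the sorted PGCs was not tested. On the 6 arms the PGC list held 19504 peaks and the somatic list 17411, with median heights of 62.1 and 56.9 RPKM.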

How the data were processed

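ATAC-seq was made by the authors on 2 samples of PGCs and 2 of somatic cells. Per the methods and the labels, adapters were trimmed with cutadapt 4.2, reads were aligned with Bowtie2 2.5.1 to the dm6 assembly, duplicates were removed with SAMtools 1.17, and RPKM coverage was computed with deepTools 3.5.4 outside blacklisted regions. Both samples were averaged, and peaks were called on the average with MACS2 (minimum length 60 bp, maximum gap 150 bp, cutoff set by hand), although the lists hold peaks 50 bp wide. The deposited score of a peak is 10 times the RPKM height at its summit, truncated to a whole number, and was divided by 10 here. RPKM scales by mapped reads, so more reads outside peaks lower every peak. Depth per sample is unknown from the lists.

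Start sites of all annotated transcripts came from the Ensembl annotation of release 6, and sequences from RefSeq's copy of that assembly. A gene had a peak if any base lay within 500 bp of any start. Shares carry exact Clopper-Pearson intervals. No test was made, because each list is an average. The lookup was tested on simulated data, where peaks planted within the distance were found at 1000 of 1000 genes and those beyond it were left out at 1000 of 1000. Alternatives were the distance (250 and 1000 bp), the summit in place of the whole peak, a minimum of 80 RPKM, peaks wider than 50 bp, the most upstream start alone, and 50% reciprocal overlap. Python 3.11.15, numpy 2.4.6, scipy 1.17.1 and matplotlib 3.10.9 were used.

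The members, the related lists and the markers were chosen with earlier results of these data known. Named receptors were those with the 10 highest peaks of each list, with overlapping peaks of both lists, with more than 1 start or with a covered start, and well-studied members. Gr2a's somatic neighbour peak and members just outside 500 bp, at the largest distances or with low peaks (Or33a, Or83c, Or9a, Or88a, Or85e, Or10a and Gr10a) were named after their values were seen. The ovary small RNA samples were not used.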

Additional observations from a re-analysis of the deposited data

How the results depend on the processing

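The count of receptor genes with a peak depended on where the lists and the distance end. With peaks of at least 80 RPKM, the 13 PGC and 11 somatic genes became 3 and 0, those nearest to a receptor start 2 and 0 (from 11 and 11), those with overlapping peaks 0 (from 3), and the median PGC height 111 RPKM (from 58.8), while all protein-coding genes with a peak fell from 7217 to 4467 and from 4353 to 998. With peaks wider than 50 bp, the counts were 8 and 6, nearest to a receptor start 6 and 6, and overlapping 1. Within 1000 bp, they were 20 and 24, with 21 somatic genes nearest to a receptor start and 5 overlapping. Within 250 bp, 6 genes had a PGC peak and 5 had one nearest to a receptor start. The remaining 35 of 54 alternative values stayed within 1.5 times the count or within the interval of the median. In each of the 6 settings applied to every result, receptor shares were below those of all genes, from 2.52% against 32.0% (80 RPKM) to 16.8% against 57.8% (1000 bp) in PGCs, and from 0% against 7.16% to 20.2% against 42.5% in somatic cells. No somatic median exists at 80 RPKM. No paired analysis was possible because the replicates of a cell type were merged before peak calling, and no replicate could be left out. Peaks under 50 RPKM are not listed, so a missing peak is not closed chromatin.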
